A study of Mus musculus with 6 samples.

Results

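T cells of the repetitive-exposure experiment were the 206 cell barcodes, of 16876 in its 2 libraries and 33286 in the series, that carried RNA of the T cell receptor complex. A barcode was taken as a T cell where it held at least 700 unique molecular identifiers (UMIs, counted RNA molecules), at least 2 UMIs of Cd3e, Cd3d and Cd3g together, no UMI of Cd79a (a B cell gene) or Epcam (an epithelial gene) and fewer than 2 UMIs of Tyrobp (an adaptor of myeloid and NK cells). The cells were thus chosen by their measured UMIs of these genes, so the level of these genes in them is a description. Lungs came from male Pdgfra-GFP reporter mice (strain B6.129S4-Pdgfra tm11(EGFP)Sor/J, 10 to 14 weeks of age), in which green fluorescent protein marks cells with an active Pdgfra gene, most of them fibroblasts (FBs). By oropharyngeal aspiration the mice received 3 weekly doses of PBS or of bleomycin, a drug that injures the lung epithelium and is followed by fibrosis (1 U/kg for the first 2 doses and 0.5 U/kg for the last), and GFP+ cells were sorted 2 weeks after the last dose. Each condition was 1 library of cells pooled from 3 mice, so no difference between PBS and bleomycin could be tested, and all intervals below are exact 95% intervals that cover counting error only. The sort was aimed at Pdgfra+ cells, and the study's own FB analysis set T cells aside, so the T cells here are those that came through the gate and not a sample of all lung T cells.

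T cells recognise antigen through a receptor whose variable alpha and beta (or gamma and delta) chains signal through the CD3 proteins and CD247. The coreceptor CD4 marks helper and most regulatory T cells, and CD8, made of CD8A and CD8B1 chains, marks cytotoxic T cells. T cells that still assemble their receptor genes in the thymus carry the recombinases RAG1 and RAG2, the DNA polymerase DNTT, which adds bases at the joined segments, and PTCRA, a stand-in for the alpha chain, and at the stage when most of them are found they carry CD4 and CD8 together. In the lung, mature T cells include recirculating cells, resident memory cells, regulatory cells marked by FOXP3, and gamma delta cells that make IL-17.

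The PBS library held 115 T cells among 6139 barcodes, or 1.87% (95% interval 1.55 to 2.24), and the bleomycin library 91 among 10737, or 0.848% (0.683 to 1.04). With barcodes of at least 700 UMIs as the denominator the shares were 1.89% and 0.913%. The denominators differed in kind, since the median barcode held 10178 UMIs in the PBS library and 2478 in the bleomycin library. T cells were closer to each other in depth, with a median of 3532 UMIs (703 to 44921) and 1616 genes in PBS and 4829 UMIs (901 to 45111) and 1883 genes in bleomycin. Together they held 806606 and 745301 UMIs, and their median mitochondrial share was 3.66% and 3.53%. The 2 libraries had 28 barcode sequences in common, 2 of which were T cells in PBS and none in bleomycin. In the single-dose experiment mice received 1 dose of PBS or bleomycin, and GFP+ cells of 3 pooled mice per library were sorted 2 weeks later. These cells held 23 T cells among 1060 barcodes (2.17%) after PBS and 23 among 1015 (2.27%) after bleomycin under the same rule. Organoid cultures grew alveolar epithelial cells with FBs of PBS mice (normal) or of mice given 1 bleomycin dose of 2 U/kg (fibrogenic). T cells under the same rule were 0 of 5441 normal and 1 of 8894 fibrogenic organoid barcodes. That 1 barcode held 109126 UMIs and no UMI of a receptor constant region.

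The receptor constant regions, which the rule did not use, were found in nearly all of these cells. A UMI of Trac, Trbc1 or Trbc2 was present in 115 of 115 PBS and 86 of 91 bleomycin T cells, and all 3 CD3 genes were seen in 85 and 62 of them. In Pdgfra+ barcodes without CD3, Trbc2 was seen in 0.47% of 4685 PBS and 0.324% of 3393 bleomycin barcodes, whose median depths were 10913 and 11272 UMIs. T cells just inside the limit, with exactly 2 CD3 UMIs, numbered 3 in PBS, all 3 with a receptor constant region, and 13 in bleomycin, 10 of them also with a constant region. Barcodes just outside, with 1 CD3 UMI and otherwise passing, numbered 14 in PBS, 1 of which held a receptor constant region, and 69 in bleomycin, 24 of which did (34.8%). RNA of 10 FB genes (Col1a1, Pdgfra, Dcn and others) made up a median of 2.24% and 2.89% of the UMIs of those barcodes just outside. Just inside, it made up 0.156% to 0.854% in the 3 PBS cells and 0.630% to 5.32% in the 13 bleomycin cells. Of the latter, those with 901, 952, 1101 and 1417 UMIs lay under 1%, so they stay in the sets below that leave out cells above 1%. Barcodes with receptor RNA thus continued below the limit in the bleomycin library.

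Defining genes of NK, innate lymphoid type 2, myeloid, neutrophil and red cells were near 0 in the T cells, while immunoglobulin RNA was not. The rule left out barcodes with at least 2 UMIs of Tyrobp, so low NK and myeloid counts were partly set by it and are a description. The 6 epithelial genes held 38 UMIs in PBS and 72 UMIs in bleomycin T cells (47.1 and 96.6 CPM), with Epcam barcodes left out by the rule. NK cell genes held 9 UMIs in PBS and 4 in bleomycin T cells, with 4 of 6 genes at 0 in both libraries. Innate lymphoid type 2 genes held 15 and 21 UMIs, myeloid genes 8 and 7, neutrophil genes 2 and 1, and the 3 erythrocyte genes none. The 9 plasma cell genes held 94 UMIs in PBS and 1329 UMIs in bleomycin T cells (116.5 and 1783 CPM), 886 of the latter being Igkc, and 6 B cell genes held 113 and 36 UMIs, with 3 genes at 0 in both. The 4 endothelial genes held 479 UMIs in PBS and 84 UMIs in bleomycin T cells (594 and 113 CPM). FB RNA was the largest foreign signal of the lists. Its 10 genes held a median of 0.072% of the UMIs of a PBS T cell and 0.103% of a bleomycin T cell, but they passed 1% in 19 PBS T cells (16.5%, 10.3 to 24.6) and in 27 bleomycin T cells (29.7%, 20.6 to 40.2). These barcodes were deep, with medians of 17741 and 12043 UMIs, Pdgfra itself was seen in 18 of 19 and 21 of 27, and they supplied 44.1% and 49.0% of all T cell UMIs. Whether they were a T cell and an FB in 1 droplet was not tested. A further 3 PBS and 7 bleomycin T cells lay between 0.5% and 1%, and 4 and 2 lay between 1% and 1.5%.

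**Figure D1:**
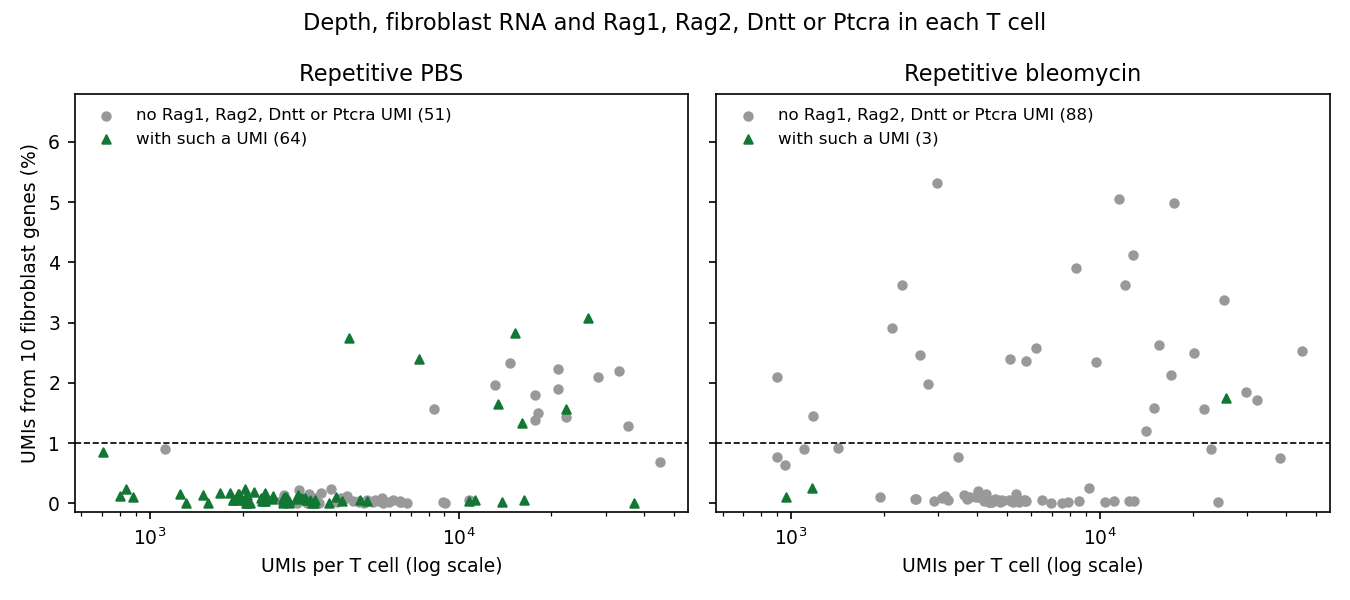
Each point is 1 T cell of the repetitive PBS (left) or bleomycin (right) library, with its UMIs on a log x axis and the share of its UMIs from 10 FB genes on the y axis; green triangles are cells with a UMI of Rag1, Rag2, Dntt or Ptcra, and the dashed line is 1%. Cells above the line (19 in PBS, 27 in bleomycin) sit mostly at the deep end. Most of the 64 green triangles in PBS run along the bottom, but 7 lie above the line, 1 of them the highest PBS point (3.08%). Of the 3 green triangles in bleomycin, 1 lies above the line.

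Split by their coreceptors at the depth measured, PBS T cells were led by cells with both Cd4 and Cd8a and bleomycin T cells by cells with Cd4 alone, besides the cells in which neither gene was seen. Of the 115 PBS T cells, 14 held Cd4 only (12.2%, 6.82 to 19.6), 28 held Cd8a only (24.3%, 16.8 to 33.2), 39 held both (33.9%, 25.4 to 43.3) and 34 held neither (29.6%, 21.4 to 38.8). Of the 91 bleomycin T cells, 28 held Cd4 only (30.8%, 21.5 to 41.3), 10 held Cd8a only (11.0%, 5.40 to 19.3), 3 held both (3.30%, 0.685 to 9.33) and 50 held neither (54.9%, 44.2 to 65.4). The intervals of the 2 libraries were apart for Cd4 only, for both and for neither, and overlapped for Cd8a only. They cover the counting of cells in 1 library per condition and give no test of bleomycin against PBS. In Pdgfra+ barcodes a UMI of Cd4 was seen in 1.11% and 0.472%, and of Cd8a in 0.0854% and 0.0295%. With every T cell thinned to 700 UMIs, the expected share with both was 6.73% in PBS and 1.91% in bleomycin, the share with Cd8a only was 20.3% and 2.30%, and the share with Cd4 only was 8.99% and 5.59%, so that at equal depth PBS was the higher library for Cd4 only as well. Within thinned PBS cells, the share with both fell below the shares with Cd8a only and with Cd4 only. A cell with both can keep only Cd4 or only Cd8a when thinned, and the order of Cd4-only cells between the libraries turned with depth and is not read further. Cells with neither came to 64.0% and 90.2% after thinning.

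Summed over cells, Cd8a held 219 UMIs in 67 PBS T cells and 29 UMIs in 13 bleomycin T cells. Its level was 271 CPM (UMIs scaled to a total of 1000000 per library's T cells, 237 to 310) against 38.9 (26.1 to 55.9), a log2 ratio of −2.52, where all log2 ratios here are of bleomycin over PBS after adding 10 CPM to both. Cd8b1, the other CD8 chain, held 374 UMIs in 72 cells and 73 UMIs in 18 cells, with a log2 ratio of −2.13. Cd4 held 112 UMIs in 53 cells (139 CPM) and 46 UMIs in 31 cells (61.7 CPM), a log2 ratio of −1.05. All 3 coreceptor genes were thus at least 2-fold lower in bleomycin T cells, where 4.43% of the 8685 genes with at least 20 UMIs were lower and 4.28% higher by that measure.

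**Figure D2:**
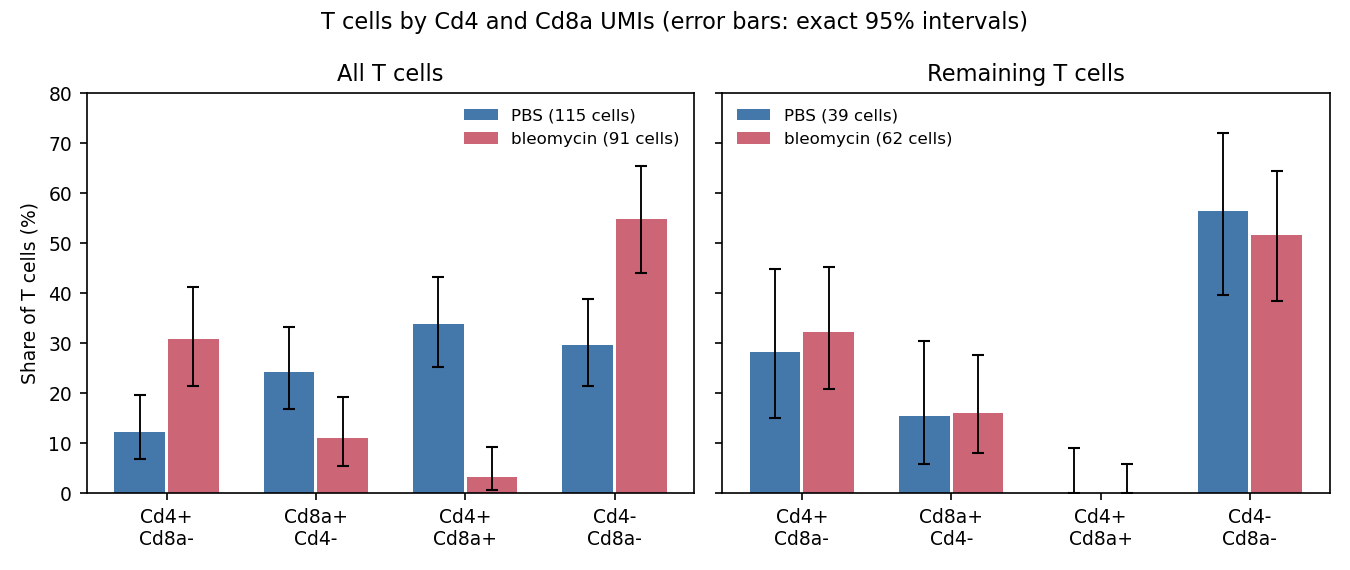
Bars give the share of T cells (%) by the presence of a Cd4 and a Cd8a UMI in the repetitive PBS and bleomycin libraries, for all T cells (left) and for the T cells left once those with Rag1, Rag2, Dntt or Ptcra and those above 1% FB RNA are taken out (right); error bars are exact 95% intervals. Cells with both make up 33.9% of all PBS and 3.30% of all bleomycin T cells on the left and 0 of either on the right.

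The cells with both coreceptors in PBS carried the RNA of immature T cells. Rag1 was seen in 35 of these 39 cells, Dntt in 38, Arpp21 (an RNA-binding protein of immature T cells) in 39, Endou in 36, Myb (a transcription factor of progenitors) in 30, Ccr9 (a homing receptor of thymocytes and gut T cells) in 30 and Ly6d in 22. Their levels in that class were 865 CPM for Rag1, 1061 CPM for Dntt and 1358 CPM for Arpp21. Cells with Cd8a only followed, with Rag1 in 16 of 28 and Dntt in 16. Of the 14 cells with Cd4 only, 2 held Rag1 and 2 held Dntt. Of the 34 cells with neither, 1 held Rag1 and 6 held Dntt. All 3 bleomycin cells with both coreceptors held Rag1 and Dntt, and no other bleomycin T cell held either gene. In PBS, Rag1 and Dntt thus lay mainly in cells with Cd8a, more of them with Cd4 as well than without. In bleomycin they lay only in the 3 cells with both, 1 of which was above 1% FB RNA, and not in the 10 with Cd8a only. The libraries held different numbers of cells with both.

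**Figure D3:**
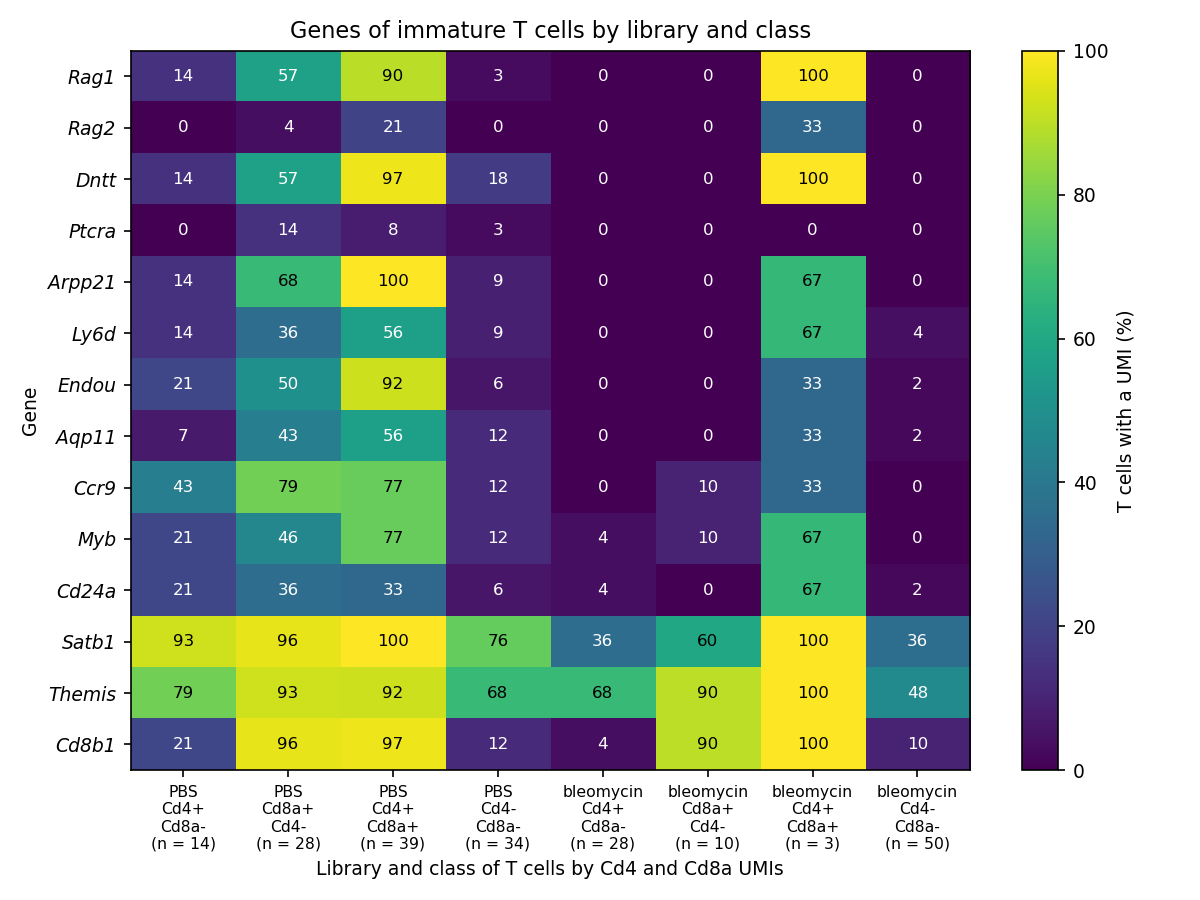
The grid gives the share of T cells (%) with a UMI of each gene (rows) in the 4 coreceptor classes of the repetitive PBS and bleomycin libraries (columns). In PBS, Rag1 reaches 35 of 39 and Arpp21 39 of 39 cells with both Cd4 and Cd8a; in bleomycin, Rag1 and Dntt are seen in the 3 cells with both and in no cell of the other classes.

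Over all T cells, Rag1 held 258 UMIs in 54 of 115 PBS cells (320 CPM, 282 to 361) and 13 UMIs in 3 of 91 bleomycin cells (17.4 CPM, 9.29 to 29.8). The bleomycin level was 0.0545 times the PBS level (0.0286 to 0.0949), and the log2 ratio was −3.59. Dntt held 295 UMIs in 62 cells and 6 UMIs in 3 cells, a log2 ratio of −4.38. Rag2 held 15 UMIs in 9 cells and 1 UMI in 1 cell, a ratio of 0.0722 with an interval of 0.00171 to 0.469. Ptcra held 11 UMIs in 8 PBS cells and none in bleomycin, at least 3.39-fold lower when 3 UMIs are put in place of 0. Genes were then ranked that were at least 4 times as high in T cells as in other barcodes of the same library, in at least 1 library. A gene could thus enter through only the library where it was high, and the ranking is a description. The 10 with the lowest log2 ratios were Arpp21 (−4.50, 395 UMIs against 9), Dntt, Ly6d (−4.31, 260 against 5), the histone genes Hist1h2ae, Hist1h1b, Hist1h2ap and Hist1h1a, Endou (−3.87), Rag1 and Ccr9 (−3.36). Of these 10, 6 were genes of immature T cells and 4 were replication-dependent histone genes. In thinned cells the share with Rag1 was 29.3% in PBS and 2.27% in bleomycin.

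Outside the T cells Rag1 and Rag2 were nearly absent, and Dntt and Ptcra were not. Rag1 held 3 UMIs in 2 other barcodes of the PBS library and 3 UMIs in 3 of the bleomycin library, and no Pdgfra+ barcode of the PBS library held it. Dntt held 28 UMIs in 8 and 25 UMIs in 13 other barcodes, against 295 and 6 in the T cells. Ptcra held 34 and 19 UMIs in other barcodes, against 11 and 0 in the T cells. Foxn1, the master regulator of thymic epithelium, was at 0 in both libraries, and Psmb11, Prss16 and Aire, which thymic epithelium expresses, held 5, 3 and 5 UMIs in the whole PBS library and 7, 1 and 2 in the whole bleomycin library, none of them in a T cell. A sort for Pdgfra-GFP would remove most epithelium, so these low counts say little about it. Whether thymic tissue was part of any lung preparation was not tested.

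For the 4 genes that name the immature cells below, the promoters are shown, taken from RefSeq on GRCm38.p6 as 250 bases before to 50 after the start of transcription. Rag1 (chr2:101649483-101649782, minus strand) and Rag2 (chr2:101624462-101624761, plus strand) are neighbours on chromosome 2, Dntt lies at chr19:41029025-41029324 on the plus strand and Ptcra at chr17:46763663-46763962 on the minus strand. Sequences run 5′ to 3′ along the gene, and capitals mark matches to the E-box CANCTG (searched on both strands, which overlap where the motif is its own reverse complement), the motif bound by the E proteins of developing lymphocytes.
Rag1: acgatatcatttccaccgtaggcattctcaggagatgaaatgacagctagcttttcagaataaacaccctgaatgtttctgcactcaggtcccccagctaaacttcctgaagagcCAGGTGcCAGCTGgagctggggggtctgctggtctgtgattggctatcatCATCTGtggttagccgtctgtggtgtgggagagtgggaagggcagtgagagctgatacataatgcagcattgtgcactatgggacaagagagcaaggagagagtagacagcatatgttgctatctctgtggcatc
Rag2: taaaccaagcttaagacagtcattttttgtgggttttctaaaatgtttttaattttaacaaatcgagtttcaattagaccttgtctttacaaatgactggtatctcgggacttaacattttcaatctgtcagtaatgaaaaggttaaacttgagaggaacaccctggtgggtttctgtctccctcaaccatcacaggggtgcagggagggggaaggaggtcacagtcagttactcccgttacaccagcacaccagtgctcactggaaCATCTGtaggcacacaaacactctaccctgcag
Dntt: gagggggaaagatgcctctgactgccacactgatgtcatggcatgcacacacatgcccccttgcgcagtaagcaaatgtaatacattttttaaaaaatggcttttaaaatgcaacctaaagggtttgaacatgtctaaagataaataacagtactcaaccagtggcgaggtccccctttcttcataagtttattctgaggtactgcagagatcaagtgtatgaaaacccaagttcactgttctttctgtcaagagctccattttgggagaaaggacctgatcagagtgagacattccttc
Ptcra: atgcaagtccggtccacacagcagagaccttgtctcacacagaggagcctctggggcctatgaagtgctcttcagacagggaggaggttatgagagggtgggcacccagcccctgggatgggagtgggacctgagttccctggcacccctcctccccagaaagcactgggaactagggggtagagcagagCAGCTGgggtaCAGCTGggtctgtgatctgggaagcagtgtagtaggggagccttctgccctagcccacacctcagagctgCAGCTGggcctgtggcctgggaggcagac
Rag1 held 3 matches, at −135, −128 and −85 from the start site, Ptcra held 3, at −60, −49 and 21, Rag2 held 1, at 17, and Dntt held none in this window. Of all 32851 promoters of this length, 51.4% held at least 1 match and 5.16% at least 3, so a match is common, and it is a description of the letters only.

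A set of T cells with at least 1 UMI of Rag1, Rag2, Dntt or Ptcra was then drawn, a choice made after the values above were seen. It held 64 of 115 PBS T cells (55.7%, 46.1 to 64.9), 60 of them with at least 2 such UMIs, and 3 of 91 bleomycin T cells (3.30%, 0.685 to 9.33). Of the 64 PBS cells, 38 held both coreceptors, 18 Cd8a only, 2 Cd4 only and 6 neither. They were not the deepest cells, with a median of 2698 UMIs, and they supplied 39.9% of PBS T cell UMIs. In the single-dose experiment the set held 14 of 23 T cells after PBS (60.9%, 38.5 to 80.3) and 0 of 23 after bleomycin, which allows a share of up to 13.0% when a count of 0 is set at 3 cells, and of up to 14.8% by the exact interval. The 14 cells again held both coreceptors (11) or Cd8a only (3). The PBS and bleomycin libraries of both experiments therefore lay in the same order, each with 1 library a condition.

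Within the PBS library, the 64 cells were set beside the 39 T cells that held neither these genes nor over 1% FB RNA. In this comparison 18.3% of 4820 genes were at least 2-fold higher and 8.88% lower in the 64 cells, and log2 ratios in this paragraph are of the 64 over the 39 cells. Of 14 further genes of immature T cells, a list also chosen after the values were seen, 11 were higher and 1 was lower, with a median of 1.88 and a highest value of 5.84 for Ly6d. All 11 cell cycle genes were higher (median 4.05), with Top2a, a topoisomerase of dividing cells, at 145 UMIs in 9 cells against 0. The beta chain constant region Trbc2 was seen in 64 of 64 and 38 of 39 cells, at 4838 and 1577 CPM, and Themis, which works in thymic selection, at 1696 and 436 CPM. Genes of mature T cells were low. Il7r held 1 UMI in the 64 cells and 149 UMIs in 29 of the 39, S1pr1 0 and 69 UMIs, Icos (a costimulator of activated cells) 1 and 123 UMIs, and Cxcr6 0 and 70 UMIs. Of the naive genes 6 of 10 were lower and Tcf7, a factor used from the earliest T cell stage on, was higher (1.54), and all 5 residence and all 4 cytotoxic genes compared were lower. The 10 FB genes were all higher in the 64 cells (median 2.11), 7 of which lay above the 1% limit that the 39 cells were chosen to be under.

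Leaving out the Rag1, Rag2, Dntt or Ptcra cells and those above 1% FB RNA left 39 PBS and 62 bleomycin T cells, the remaining T cells, with 233950 and 377813 UMIs and medians of 4742 and 4472 UMIs. They were 0.635% (0.452 to 0.867) and 0.577% (0.443 to 0.740) of the barcodes of their libraries, with overlapping intervals. Set against the 50 and 100 Cd79a+ barcodes of the same libraries, all T cells numbered 2.30 and 0.91 per Cd79a+ barcode and the remaining T cells 0.78 and 0.62. B cells and plasma cells were not told apart among these barcodes. The coreceptor classes of the remaining T cells also lay close together. Cd4 only was seen in 11 of 39 (28.2%, 15.0 to 44.9) and 20 of 62 (32.3%, 20.9 to 45.3), Cd8a only in 6 (15.4%) and 10 (16.1%), both in 0 and 0, and neither in 22 (56.4%) and 32 (51.6%). The absence of cells with both follows from how the set was drawn, since 38 of the 39 such cells in PBS and all 3 in bleomycin held Rag1, Rag2, Dntt or Ptcra and the other was above 1% FB RNA. The coreceptor levels parted in direction: Cd8b1 was now higher in bleomycin (log2 ratio 1.24, with 16 UMIs in 8 cells and 66 in 12, 19 of them in 1 cell), Cd8a stood at −0.53 and Cd4 at −0.02.

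RNA of other cells had not wholly gone from the remaining T cells. The FB genes held 417 and 741 UMIs (1782 and 1961 CPM), most of them in a few deep cells under the 1% limit. In PBS this was 1 cell of 44921 UMIs with 0.686% FB RNA, out of 233950 UMIs in all remaining PBS cells, and in bleomycin 2 cells of 38220 and 22893 UMIs with 0.756% and 0.896%, while the median cell held 0.046% and 0.062%. The 4 endothelial genes held 392 and 65 UMIs, most of the former in 1 PBS cell with 78 UMIs of Cdh5, 101 of Cldn5 and 124 of Ramp2. The part of such cells in the results below was not tested, and single cells that supply most UMIs of a gene are named.

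Many regulatory T cell genes were higher in bleomycin. Of 12 genes, 11 could be compared in all T cells and 8 were at least 2-fold higher, none lower, beside 4.28% higher and 4.43% lower of all 8685 genes. Their median log2 ratio was 1.31, beside −0.05 over all genes. In the remaining T cells, where 6.70% of 4866 genes were higher and 4.83% lower and the median was 0.02, 4 of 9 were higher and none lower, with a median of 0.95. Ctla4, which holds back costimulation, held 12 UMIs in 5 of 39 PBS cells (51.3 CPM, 26.5 to 89.6) and 105 UMIs in 21 of 62 bleomycin cells (278 CPM, 227 to 336), a ratio of 5.42 (2.98 to 10.8). Tnfrsf4 (OX40) held 4 UMIs in 3 cells and 58 UMIs in 14 cells, a ratio of 8.98 (3.32 to 34.1). Tnfrsf9 (4-1BB) held none in the remaining PBS cells (12 UMIs in 2 of all PBS T cells) and 37 UMIs in 13 bleomycin cells, at least 7.64-fold higher. It thus reached the 20 UMIs needed to be compared through bleomycin alone. Genes of any list could enter in this way, so list counts and medians here and below are a description. Ikzf2 (Helios) held 46 UMIs in 17 cells and 201 UMIs in 32 cells, a ratio of 2.71 (1.96 to 3.81), although 19.5% and 23.6% of Pdgfra+ barcodes also held it, at 25.3 and 31.2 CPM.

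Foxp3, the factor that defines regulatory T cells, was sparse. It held 4 UMIs in 1 of 39 PBS cells (2.56%, 0.0649 to 13.5) and 16 UMIs in 8 of 62 bleomycin cells (12.9%, 5.74 to 23.9), and its ratio of 2.48 had an interval of 0.799 to 10.2, which includes 1. Over all T cells it was seen in 1 of 115 and 11 of 91, and in 0.128% and 0.0295% of Pdgfra+ barcodes. The 8 bleomycin Foxp3 cells also carried other genes of the type. Ctla4, Tnfrsf4, Tnfrsf18 (GITR) and Ikzf2 were each seen in 8 of the 8, Tnfrsf9 in 7, Areg in 6, Klrg1 in 6, Il1rl1 in 5, Cd4 in 5, Il2ra (CD25) in 4 and Cxcr6 in 1. Many carriers of these genes held no Foxp3 UMI. Of all 62 remaining bleomycin cells, Ctla4 was seen in 21, Tnfrsf4 in 14, Tnfrsf9 in 13, Tnfrsf18 in 27, Ikzf2 in 32 and Il2ra in 12. Areg and Klrg1 were each seen in 8 of the 62 and Il1rl1 in 7. Whether carriers without a Foxp3 UMI were regulatory T cells was not tested. The PBS Foxp3 cell held Ctla4, Il2ra, Ikzf2, Tnfrsf4 and Tnfrsf18.

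Amphiregulin (Areg), an epidermal growth factor receptor ligand, and the IL-33 receptor Il1rl1 (ST2) had no UMI in the PBS T cells. In Pdgfra+ barcodes, which were deeper, Areg was seen in 0.064% and 0.501% and Il1rl1 in 0 and 0.472%, against 14.3% and 9.89% of bleomycin T cells (3.62% and 2.38% when thinned). Areg held no UMI in PBS T cells and 57 UMIs in 13 of 91 bleomycin T cells, at least 20.6-fold higher. In the remaining T cells it held 28 UMIs in 8 of 62, at least 5.78-fold higher, and 6 of those 8 cells also held Foxp3. Il1rl1 held 0 against 16 UMIs in 7 remaining bleomycin cells, at least 3.30-fold higher. Klrg1, an inhibitory lectin receptor of terminally differentiated T cells, held 1 UMI in PBS and 18 UMIs in 8 cells in bleomycin, a ratio of 11.2 with an interval of 1.76 to 464. Tigit held 0 and 8 UMIs, at least 1.65-fold higher. A PBS count of 0 in 39 cells, set at 3 cells, allows a share of up to 7.69% of cells with a UMI, and the exact interval reaches 9.03%.

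**Figure D4:**
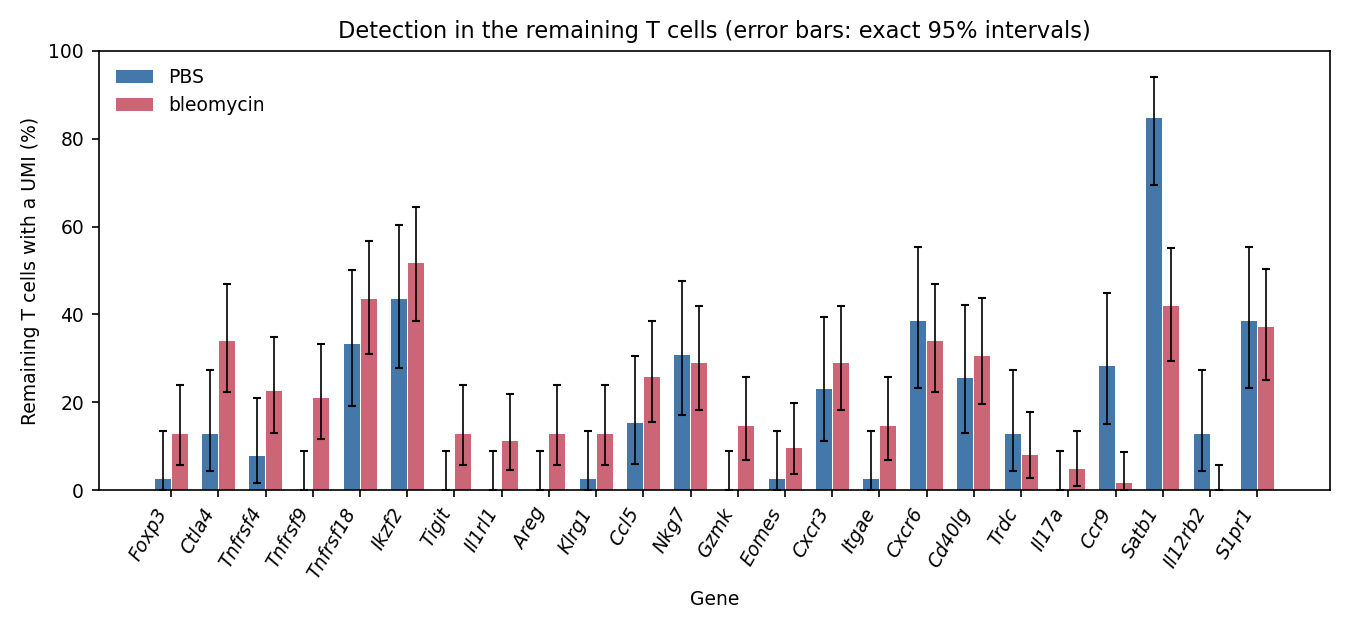
Bars give the share (%) of the remaining T cells of the repetitive PBS (39 cells) and bleomycin (62 cells) libraries with a UMI of each gene, with exact 95% intervals. Ctla4 is seen in 12.8% and 33.9% and Foxp3 in 2.56% and 12.9%, while the intervals overlap for most genes.

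Some cytotoxic genes were higher in bleomycin as well. Of 17 genes, 9 could be compared in all T cells, where 6 were higher and none lower (median 1.36), and 8 in the remaining T cells, where 4 were higher and none lower (median 0.95, or 0.28 with each cell given equal weight) and 4 stayed within 2-fold (lowest Ctsw, −0.72). Among all genes compared 4.28% were higher in the first set and 6.70% in the second. Ccl5, a chemokine of effector cells, held 156 UMIs in 6 of 39 PBS cells (667 CPM, 566 to 780) and 674 UMIs in 16 of 62 bleomycin cells (1784 CPM, 1652 to 1924), a ratio of 2.67, and in PBS 1 cell supplied 127 of the UMIs. Gzmk, a granzyme of memory T cells, held none in PBS and 32 UMIs in 9 bleomycin cells, at least 6.61-fold higher. Gzmb held 4 UMIs in 1 cell and 28 in 4, 17 of them in 1 cell. Nkg7, a granule protein, was seen in 12 of 39 (30.8%) and 18 of 62 (29.0%) and differed in level by a ratio of 1.55 (1.16 to 2.09). Gzma, with 39 UMIs in 2 cells and 102 in 2, rested on 1 bleomycin cell that held 99 of them.

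The 9 bleomycin Gzmk cells held Nkg7 in 8, Ccl5 in 8, the type 1 chemokine receptor Cxcr3 in 7, the transcription factor Eomes in 5 and Ifng in 4. Cd8a was seen in 4 of them and Cd4 in 3, and no Gzmk cell held Foxp3. Ifng itself, the effector cytokine of type 1 cells, held 12 UMIs in 2 cells and 11 UMIs in 6, a ratio of 0.568 (0.227 to 1.41). Of the type 1 genes, Il12rb2 (an IL-12 receptor chain) held 20 UMIs in 5 PBS cells and none in bleomycin, at least 10.8-fold lower. It was the only lower gene of 7 compared in the remaining T cells and none was higher, beside 4.83% and 6.70% of all genes.

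Of 8 gamma delta and type 17 genes compared in the remaining T cells, 1 was higher (Il17a, 2.71) and 1 lower in bleomycin (Zbtb16, −1.28), with a median of 0.38, beside 6.70% and 4.83% of all genes. Zbtb16 (PLZF), a factor of innate-like T cells, held 50 UMIs in 9 PBS cells and 31 in 9 bleomycin cells, and was also seen in 46.5% and 23.5% of Pdgfra+ barcodes. Trdc, the delta chain, held 42 UMIs in 5 of 39 and 72 UMIs in 5 of 62 remaining T cells, a ratio of 1.06 (0.716 to 1.59), and Cd163l1 (SCART1), a scavenger receptor of gamma delta cells, a ratio of 1.18 (0.751 to 1.88). Of the 5 bleomycin Trdc cells, 4 held Cd163l1, 4 the IL-23 receptor Il23r and 4 Cxcr6, while 3 also held the alpha chain Trac and 1 held Cd4. Of the 5 PBS Trdc cells, 3 held Cd163l1, 2 Il23r, 3 Cxcr6 and 1 Trac. Il17a was seen in 0 PBS and 3 remaining bleomycin cells, with 16 of its 21 UMIs in 1 cell. Of these 3 cells, 1 held Trdc and 2 held Trac. Over all PBS T cells Trdc was seen in 17 cells. The type 2 cytokine Il4 rested on 1 cell as well, with 46 of 50 PBS UMIs in it, and Gata3, the type 2 factor, had a ratio of 0.929 (0.551 to 1.59).

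Genes of naive and recirculating T cells leaned the other way. In the remaining T cells 4 of 10 were at least 2-fold lower in bleomycin and 1 was higher, with a median log2 ratio of −0.83, beside 4.83% lower and 6.70% higher among all genes compared. Satb1, a chromatin organiser, held 316 UMIs in 33 of 39 PBS cells (1351 CPM, 1206 to 1508) and 102 UMIs in 26 of 62 bleomycin cells (270 CPM, 220 to 328), a log2 ratio of −2.28. Lef1, a transcription factor of naive cells, stood at −1.14, with 30 of 39 and 33 of 62 cells, and S1pr1, the receptor for egress into blood and lymph, at −1.07. Ccr7, the lymph node homing receptor, stood at −1.01, on 26 and 19 UMIs. Igfbp4, which FBs also express, was the higher gene (1.07), with 61 of its 96 bleomycin UMIs in 1 cell. Il7r, the receptor for the survival cytokine IL-7, stood at 637 and 656 CPM, a ratio of 1.03 (0.838 to 1.27). Ccr9 was also lower, with 23 UMIs in 11 PBS cells and 1 UMI in bleomycin. Whether PBS cells with Satb1 and Ccr9 but no UMI of the 4 genes that chose the immature set belong with it was not tested.

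Most genes of tissue residence lay within 2-fold. Of 6 compared in the remaining T cells, 1 was higher, 1 lower and 4 between (median −0.07), beside 6.70% higher and 4.83% lower among all genes compared. Itgae (CD103), which binds E-cadherin, held 1 UMI in PBS and 19 UMIs in 9 bleomycin cells, a ratio of 11.8 with an interval of 1.87 to 489. Prdm1 (Blimp-1) held none in PBS and 11 UMIs in 8 bleomycin cells, at least 2.27-fold higher. Cxcr6, a chemokine receptor of resident T cells, stood at 299 and 310 CPM (ratio 1.03, 0.763 to 1.41) and was seen in 15 of 39 and 21 of 62 cells. Itga1, the lower gene, held 40 of its 44 PBS UMIs in 1 cell.

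Receptor and signalling genes lay within 2-fold of each other in the remaining T cells. Among these cells, none of 10 genes of the receptor and CD3 and none of 17 of signalling and costimulation passed 2-fold, with medians of −0.18 and −0.17. The first list holds the CD3 genes, whose UMIs chose the cells by the same limit in both libraries. Their part in this count is a description. In all T cells 2 of 11 and 5 of 18 were lower, beside 4.43% of all genes. Trbc2 held 2016 UMIs (2499 CPM) in PBS and 491 (659 CPM) in bleomycin T cells, a log2 ratio of −1.91, which was −0.54 in the remaining T cells. Themis, needed for selection in the thymus, went from −1.5 to −0.09. V segments of the beta chain were seen in 14 of the 39 remaining PBS cells (12 different Trbv genes) and 8 of the 62 bleomycin cells (6 genes), and over all T cells in 41 of 115 (17 genes) and 9 of 91 (6 genes). V segments of the alpha chain were seen in 7 of 39 and 11 of 62 remaining cells, and in 19 of 115 and 14 of 91 of all.

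Cell cycle genes turned direction between the sets. Over all T cells 10 of 11 were lower in bleomycin (beside 4.43% of all genes), with a median of −1.38, and all 83 PBS UMIs of Mki67 and all 145 of Top2a lay in cells with Rag1, Rag2, Dntt or Ptcra. In the remaining T cells 3 of 6 were higher in bleomycin (beside 6.70% of all genes) and none lower, with a median of 1.58, or 1.29 with genes unseen in PBS at their bound and 0.72 with each cell given equal weight. Mki67, a marker of cycling cells, then held 0 UMIs in PBS and 25 UMIs in 5 bleomycin cells, 16 of them in 1 cell, at least 5.16-fold higher. Top2a held 0 and 25 UMIs, 21 of them in 1 cell.

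Secreted and membrane ligands split, with 23 genes listed and 11 compared in the remaining T cells. Of these 11, 4 were higher and 1 was lower in bleomycin (median 0.48), beside 6.70% and 4.83% of all genes. The 4 higher genes reached the 20 UMIs needed through bleomycin alone and the lower gene, Il4, through PBS, so these counts are a description. Besides Areg and Il17a, the higher genes were Tnfsf8 (CD30 ligand), with 4 UMIs in 4 cells and 36 in 11, and Tnfsf11 (RANKL), with 2 UMIs in 2 cells and 20 in 8, 12 of them in 1 cell. Cd40lg, the helper signal to B cells, had a ratio of 0.835 (0.471 to 1.5). Osbpl3, among the 10 highest T cell genes, held 8 UMIs in 6 PBS cells and 41 UMIs in 20 bleomycin cells, a ratio of 3.17 (1.47 to 7.84). Grem1 and Nrg1, named by the same rule, came from few barcodes. Grem1 held 72 UMIs in the remaining T cells, all in 1 bleomycin cell, which also held 123 UMIs of Dcn, a proteoglycan of FBs.

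**Figure D5:**
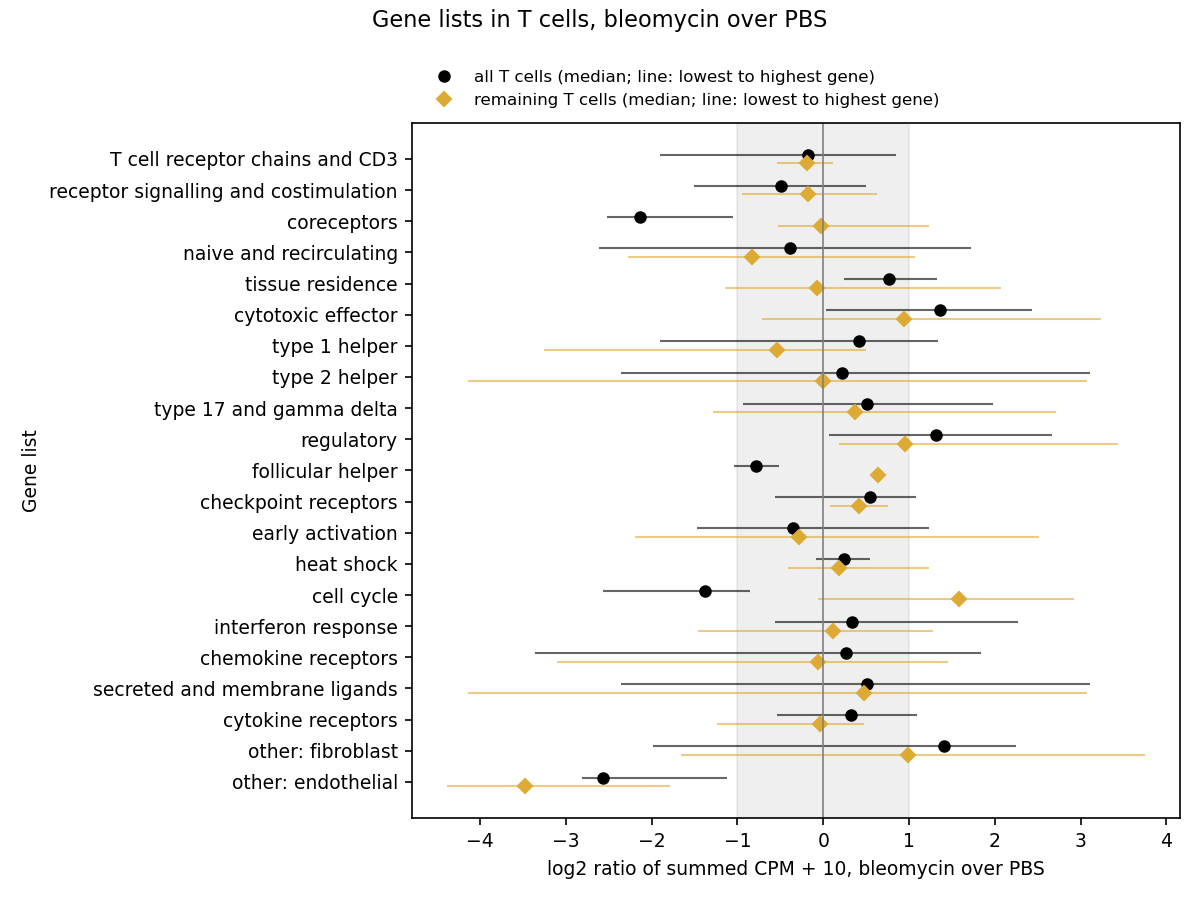
For each gene list (rows), the symbol marks the median gene's log2 ratio, bleomycin T cells over PBS T cells (summed CPM with 10 added, x axis), and the line runs from the lowest to the highest gene, for all T cells and for the remaining T cells; grey marks less than 2-fold. The coreceptor median moves from −2.13 to −0.021 and the cell cycle median from −1.38 to 1.58, while the regulatory median stays positive at 1.31 and 0.95.

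Among the lists not described above, early activation and chemokine receptor genes held the most lower members. In the remaining T cells, where 6.70% of all genes compared were higher and 4.83% lower, 1 of 15 early activation genes was higher and 4 lower (median −0.28), 1 of 10 interferon response genes was higher and 1 lower (median 0.12), and 1 of 10 chemokine receptor genes was higher and 3 lower (median −0.06). Checkpoint receptors (0 of 2 past 2-fold), heat shock genes (1 of 6 higher) and cytokine receptors (0 of 11 higher, 1 lower) gave medians of 0.42, 0.18 and −0.04, and the only follicular helper gene compared, Sh2d1a, stood at 0.64. Of the early activation genes, Jun (−2.19) held 102 of its 136 PBS UMIs in 1 cell, which also held 78 UMIs of Cdh5 and 101 of Cldn5, endothelial genes. Ifi27l2a was the higher interferon gene, with 252 and 625 CPM, and Pdgfra+ barcodes held it at 422 and 606 CPM. Immunoglobulin RNA marked the bleomycin library as a whole. Igkc, the kappa light chain of plasma cells, held 5 UMIs in all PBS and 886 UMIs in all bleomycin T cells, 379 of them in 1 cell, and in Pdgfra+ barcodes it was seen in 2.56% and 21.2%. Of the 1329 UMIs of the 9 plasma cell genes in bleomycin T cells, 1256 lay in the 27 cells above 1% FB RNA. In the remaining T cells these 9 genes held 31 UMIs in PBS and 71 in bleomycin (132 and 188 CPM), and Igkc stood at a log2 ratio of 1.99.

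Cells with Cd8a only and with Cd4 only were compared within each library, for T cell enriched genes that lay on the same side in both. Besides Cd8a itself, the Cd8a side was led by cell cycle genes, namely Top2a, Cdk1, Hist1h1b, Nusap1, Prc1, H2afx, Kif11, Ube2c and Mki67. Top2a held 66 UMIs in PBS cells with Cd8a only and 0 in those with Cd4 only, and 22 against 3 in bleomycin. The bleomycin values rested on few cells, with Top2a and Mki67 each in 2 of 10 cells with Cd8a only and 3 of 28 with Cd4 only. In the remaining PBS T cells Top2a, Cdk1, Nusap1, Prc1, Kif11, Ube2c and Mki67 were at 0 in both classes, so in PBS these UMIs lay in cells left out of the remaining set. The Cd4 side was led, besides Cd4, by Tmem64, Cd40lg, St6galnac3, Tnfrsf4, Cxcr6, Ramp3, Bcl2a1d, Dusp10 and Il18r1. Cd40lg held 0 and 7 UMIs in the Cd8a and Cd4 cells of PBS and 0 and 13 in those of bleomycin, and Tnfrsf4 0 and 3 and then 0 and 77. In the remaining PBS T cells Ramp3 and Il18r1 lay on the Cd8a side instead (log2 ratios of 1.93 and 0.77 for Cd8a over Cd4 cells), on few UMIs. Ramp3 held 1 UMI in the Cd8a cells and 0 in the Cd4 cells there, and Il18r1 held 6 and 5. Before cells were left out, Ramp3 held 1 and 3 UMIs in PBS and 0 and 4 in bleomycin. Cd40lg and Tnfrsf4 are genes of helper and regulatory T cells.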

How the data were processed

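GFP+ lung cells of the repetitive PBS and bleomycin mice were profiled by droplet single-cell RNA sequencing (10x Genomics), 1 library per condition. The authors aligned reads to mm10 and counted UMIs with Cell Ranger 3.0.1, and they worked on in Seurat 3; the deposited tables hold raw counts (UMIs) per gene and barcode, with no barcode below 501 UMIs in these libraries. Here the counts were read as deposited, with Python 3.11.15, numpy 2.4.6, scipy 1.17.1, pandas 2.3.3 and matplotlib 3.10.9, and cells were not clustered. T cells, the FB limit of 1% and the gene lists were chosen with earlier results of these data known; the set with Rag1, Rag2, Dntt or Ptcra, the further immature genes and the remaining T cells were chosen after the values were seen. No doublet caller was run: barcodes with Cd79a, Epcam or at least 2 UMIs of Tyrobp were left out by rule, and T cells with FB RNA are reported apart.

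Levels are UMIs summed over cells and scaled to a total of 1000000 (CPM) with exact Poisson intervals, shares carry Clopper-Pearson intervals, and ratios of CPM carry exact conditional binomial intervals, all at 95%. UMIs of 1 cell are not independent, so the intervals are too narrow as statements on cells or mice. A gene was compared with at least 20 UMIs over both libraries and called at a log2 ratio of at least 1 or at most −1 after adding 10 CPM. A gene could reach 20 UMIs through only the library where it was high, so list counts and medians are a description. A level of 0 was replaced by 3 UMIs for a bound, and a share of 0 by 3 cells. Thinned values are the expected share at 700 UMIs per cell. Named genes were those of the rule and split, the highest and lowest member and the highest level of each list, and the lineage factors and cytokines of the lists. Also named were the 10 highest and 10 lowest log2 ratios among T cell enriched genes, and 10 on each side for Cd8a over Cd4. T cell enriched genes had at least 50 UMIs and at least 4 times the CPM of other barcodes in at least 1 library. Other members of the lists were named after their values were seen. Results that rest on items withheld from this text are not reported here. The scripts were tested on simulated data. Promoters came from RefSeq (GRCm38.p6). The single-dose and organoid libraries were used only for counts of cells under the same rule and, in the single-dose libraries, of cells with Rag1, Rag2, Dntt or Ptcra and their coreceptor classes. Alternatives were 3 CD3 UMIs, 1500 UMIs, 10% mitochondrial UMIs, another denominator, Cd8b1 counted with Cd8a, thinning, 1 CPM, 50 UMIs or 1 UMI per gene, mean CPM per cell, centring, and leaving out sets of cells.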

Additional observations from a re-analysis of the deposited data

How the results depend on the processing

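With 1 library per condition no replicate could be left out, and no test was run. No paired analysis was possible because each condition was 1 library of pooled mice. The T cell share of barcodes moved by less than its interval with 3 CD3 UMIs, 1500 UMIs, at most 10% mitochondrial UMIs or the other denominator. Of alternatives chosen after seeing the data, leaving out cells with Rag1, Rag2, Dntt or Ptcra gave 0.831% in PBS, and leaving out those above 1% FB RNA as well gave 0.635% and 0.577%. In that order the PBS shares became 23.5% and 28.2% for Cd4 only, 1.96% and 0.0% for both, and 54.9% and 56.4% for neither, Cd8a only became 15.4% in the second, and both became 0.0% in bleomycin in each. Thinning gave 6.73% with both and 64.0% with neither in PBS, and 5.59% with Cd4 only, 2.30% with Cd8a only and 90.2% with neither in bleomycin. The 372 higher and 385 lower genes became 618 and 649 with 1 CPM added, 238 and 240 with at least 50 UMIs, fewer being compared, and 672 and 586 with the mean CPM per cell. Without the Rag cells 225 were lower, without both kinds 235, and 242 by mean CPM without both kinds, again with fewer genes compared. Without both kinds the 235 were 4.83% of 4866 genes, against 4.43% of 8685 in all T cells, and 326 (6.70%) were higher, against 4.28%. The coreceptor median reversed to 0.24 without the Rag cells and was −0.021 and −0.22 in the last pair of settings. The cell cycle median reversed to 0.99, 1.58 and 0.72 in those 3 settings. The regulatory median (0.95 to 1.68) and the cytotoxic median (0.28 to 2.09) stayed positive in every setting run. The lowest cytotoxic value, beside 1.36 in all T cells, was the mean CPM per cell without both kinds of cells. Each shift was smaller than the typical counting error of a single gene in the list, a wide limit that says little on how stable a median is. Of the 372 higher genes 121 were also higher in the remaining T cells (32.5% of the 372 and 37.1% of the 326), and 80 of the 385 lower genes were lower there (20.8% of the 385 and 34.0% of the 235). The shares of the 372 and 385 count genes that had too few UMIs to be compared in the remaining T cells. Depth limits what absence means: a count of 0 in 39 cells, set at 3 cells, allows 7.69% of cells with a UMI, and its exact interval reaches 9.03%.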
